A study of Bos taurus with 12 samples.

Results

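Transcripts of the cAMP phosphodiesterases, the transcriptional regulator CREM and the subunits of protein kinase A were followed in the bovine corpus luteum after prostaglandin F2α (PGF2α). The 10 genes were chosen by name: the phosphodiesterases PDE4B, PDE4D, PDE8A, PDE8B and PDE10A, CREM, the regulatory subunits PRKAR1A and PRKAR2B, and the catalytic subunits PRKACA and PRKACB. Of these, 9 had a row among the 27270 genes of the deposited tables, and PDE8B was not analysed here. All 9 passed the count minimum described next.

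RNA of whole corpora lutea from 12 mixed breed cows at day 10 of the luteal phase was sequenced, with 1 library per cow. There were 4 control cows injected i.m. with saline, 4 cows collected 4 h post-PGF2α and 4 cows collected 12 h post-PGF2α (i.m., at a luteolytic dose). All cows had synchronized estrous cycles, and the study's methods describe PGF2α itself as the synchronizing agent, so the controls had met it at an earlier cycle.

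In luteal cells, luteinizing hormone acts through its receptor and Gs to raise cAMP, the messenger that drives progesterone synthesis. Phosphodiesterases hydrolyze cyclic nucleotides and thereby end the signal. Protein kinase A is held inactive by regulatory subunits, which release the catalytic subunits when they bind cAMP. The freed catalytic subunits phosphorylate cytosolic targets and transcription factors of the CREB family, to which CREM belongs. The CREM gene also gives rise to ICER, a short repressor isoform that cAMP induces in other mammals.

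Levels between genes are given as TPM, a share of all transcripts that corrects for transcript length. Fold changes come from RSEM expected counts, rounded and scaled by TMM, tested by edgeR over 14481 genes, namely those that reached 10 counts in 4 or more of the libraries. A gene is described as changed where its Benjamini-Hochberg adjusted p over those genes was under 0.05. Library totals were 10263297 to 22600210 counts. The scale matters at 12 h: across the tested genes the median against control was 0.01 (log2) in TMM-scaled counts but -0.25 on the log2(TPM + 1) scale, on which 1509 genes were higher and 5631 lower, against 3417 and 3665 in counts. At 4 h an offset for transcript length gave 1142 genes higher and 1111 lower, against 1253 and 809 without it.

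The tissue carried its labelled identity, with the steroidogenic genes STAR, CYP11A1, HSD3B1, SCARB1, PTGFR and LHCGR detected in each library. Their summed level was 19954 to 29511 TPM in controls, 17890 to 21553 TPM at 4 h and 4636 to 9270 TPM at 12 h, and 5 of the 6 were lower in 12 h than in control corpora lutea (edgeR). Markers of macrophages (5 of 7) and neutrophils (4 of 5) were higher at 12 h than in controls, with summed levels of 323 to 504 TPM and 80.5 to 246 TPM at 12 h, against 171 to 404 TPM and 12.8 to 32.4 TPM in controls. Some marker levels also differed at 4 h, when 2 of the 6 steroidogenic genes were lower than in controls and 1 each of the macrophage and neutrophil markers was higher, with neutrophil sums of 27.3 to 134 TPM. The part of these levels in the 4 h changes given next was not tested. The 12 h group likewise differed from controls in marker levels, and in whole tissue fewer cells of a type and less RNA per cell cannot be told apart. Cow6314 of the 12 h group stood apart, with the lowest steroidogenic sum (4636 TPM) and a pericyte and smooth muscle sum of 4184 TPM, against 733 to 1384 TPM in the other 12 h cows. For the genes named below, the results are also given without cow6314 where that changes a call. Among the controls, cow4285 had the lowest steroidogenic sum (19954 TPM) and the fewest counts (10263297). Its fibroblast sum was 20101 TPM, against 6551 to 10852 TPM in the other controls.

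In controls, transcripts of the type I regulatory subunit PRKAR1A were the most abundant of the 9. They averaged 265 ± 26.7 TPM, followed by PRKACA at 79.5 ± 6.77 TPM, PRKAR2B at 52.8 ± 6.87 TPM and PRKACB at 47.1 ± 8.62 TPM (SD, n = 4 each). CREM averaged 32.3 ± 7.53 TPM and overlapped PRKACB above it and PDE8A below it. Among the 4 phosphodiesterases of the 9 genes the order was PDE8A at 27.1 ± 1.84 TPM, PDE4B at 15.0 ± 2.55 TPM, PDE4D at 10.9 ± 3.50 TPM and PDE10A at 5.30 ± 1.21 TPM. PDE8A stood above PDE4B in each of the 4 control cows, whereas PDE4B overlapped PDE4D, and PDE4D overlapped PDE10A. The order changed after PGF2α: at 4 h PDE8A reached the level of PRKACA, with overlapping ranges, and at 12 h PDE4D took the lowest place, below PDE10A with no overlap.

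**Figure D1:**
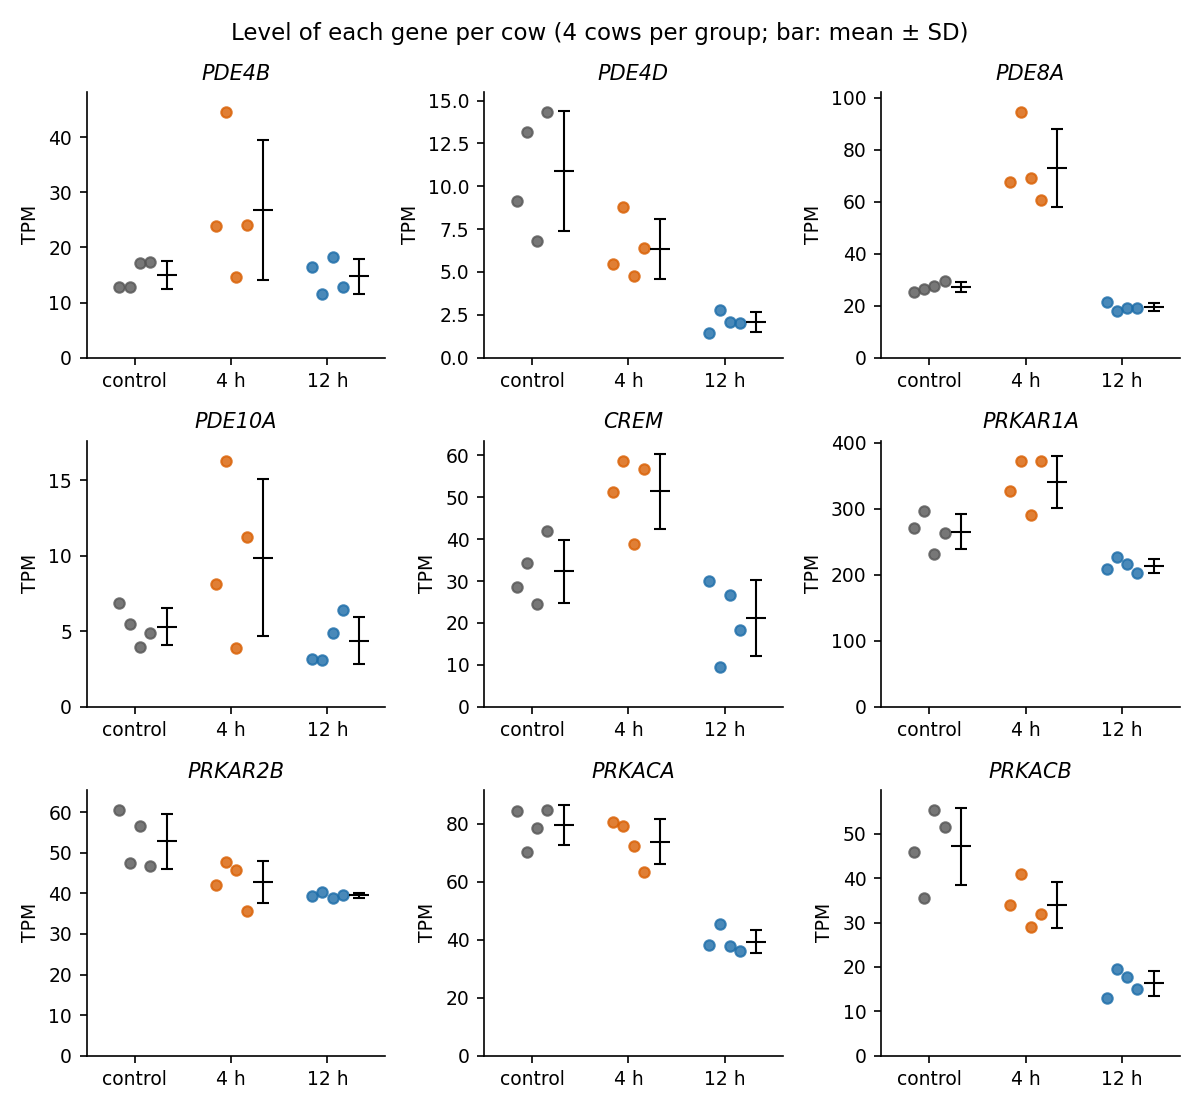
TPM of each of the 9 genes in control, 4 h and 12 h corpora lutea. Each point is 1 cow, the bar beside the points is the mean ± SD (n = 4), and each axis starts at 0. PDE8A stands at 60.5 to 94.6 TPM at 4 h with the other 8 cows at 18.1 to 29.4 TPM, while PDE4D, PRKACA and PRKACB are lowest at 12 h.

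At 4 h, 2 of the 9 genes had risen against control and none had fallen. The 2 were PDE8A and PRKAR1A. Of all genes tested 8.65% were higher and 5.59% lower in this comparison, so 2 of 9 is a small count to set against the background. At an unadjusted p under 0.05, 8 of the 9 genes passed, 5 higher and 3 lower, and PRKACA was the exception. CREM and PRKAR2B passed only narrowly (unadjusted p = 0.0479 and 0.0498, edgeR). The share of all genes at that unadjusted p was not counted, so the 8 cannot be set against a background. The median log2 fold change of the 9 was 0.39, beside -0.03 for all genes.

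PDE8A, which encodes a high-affinity, cAMP-specific phosphodiesterase (chromosome 21, 22656735 to 22799519, ARS-UCD1.2), had the largest change of the 9 in counts at 4 h. Its levels were 25.1, 26.3, 27.6 and 29.4 TPM in control cows, 67.5, 94.6, 68.9 and 60.5 TPM at 4 h, and 21.4, 18.1, 19.2 and 19.1 TPM at 12 h. The 4 h cows lay above the other 8, with a wide gap to the highest control. In counts the rise at 4 h was 2.75-fold (log2 fold change 1.46, SE 0.15, adjusted p = 8.78e-05, edgeR). By 12 h it was back near the control level, at -0.16 on the log2 scale (SE 0.15, adjusted p = 0.394, edgeR) against control and -1.62 (SE 0.15, adjusted p = 1.60e-05, edgeR) against 4 h. In TPM the 12 h cows lay below the controls without overlap, and limma on log2(TPM + 1) called the difference (-0.46, adjusted p = 0.00865), with -0.21 left after the median shift of all genes was subtracted.

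PDE4D, a cAMP-specific phosphodiesterase of the rolipram-sensitive class (chromosome 20, 20014955 to 20315593), moved the other way. Control cows had 9.15, 13.2, 6.81 and 14.4 TPM, 4 h cows 5.48, 8.78, 4.75 and 6.42 TPM, and 12 h cows 1.41, 2.80, 2.08 and 2.02 TPM. The highest 12 h cow was below the lowest cow of either other group. Its log2 fold change at 12 h was -2.14 (SE 0.26, adjusted p = 4.89e-05, edgeR), the largest of the 9, and the 12 h libraries still held 68 to 137 counts of it. Against 4 h the 12 h value was -1.40 (SE 0.25, adjusted p = 0.000839, edgeR). The 4 h difference from control was -0.74 (SE 0.24, adjusted p = 0.0622, edgeR), which missed the threshold, with DESeq2 and the length offset both calling it (adjusted p = 0.0366 and 0.0323), as edgeR did without cow7367 (0.0317) or cow5341 (0.0382).

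PDE4B, also rolipram-sensitive (chromosome 3, 78957184 to 79406648), did not pass in any comparison in counts (edgeR, every cow). It was at 12.9, 12.8, 17.2 and 17.3 TPM in control cows, 23.8, 44.6, 14.7 and 24.0 TPM at 4 h, and 16.5, 11.5, 18.3 and 12.8 TPM at 12 h. The 4 h mean rested in part on cow5341 (44.6 TPM), while cow6455 (14.7 TPM) lay inside the control range. The log2 fold change at 4 h was 0.86 (SE 0.29, adjusted p = 0.0703, edgeR). It was 1.04 with an adjusted p of 0.0290 (edgeR) without cow6455 and 0.50 with an adjusted p of 0.199 (edgeR) without cow5341, while DESeq2 called it with every cow (0.88, adjusted p = 0.0245).

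PDE10A, which hydrolyzes both cAMP and cGMP (chromosome 9, 100469651 to 100729770), had a similar spread. Control cows had 6.85, 5.50, 3.97 and 4.86 TPM, 4 h cows 8.15, 16.3, 3.87 and 11.2 TPM, and 12 h cows 3.18, 3.10, 4.87 and 6.38 TPM. Of the 4 h cows, 3 were above each control and cow6455 was below them. The log2 fold change at 4 h was 0.80 (SE 0.33, adjusted p = 0.129, edgeR), with 1.04 and an adjusted p of 0.0322 (edgeR) without cow6455, and 0.50 and an adjusted p of 0.349 (edgeR) without cow5341.

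Added together, the transcripts of the 4 measured phosphodiesterases came to 58.3 ± 5.29 TPM in control, 116 ± 32.7 TPM in 4 h and 40.7 ± 3.85 TPM in 12 h corpora lutea (SD, n = 4 each). The sum was above both other groups in the 4 h cows, without overlap. PDE8A made up 46.6% ± 2.24, 64.0% ± 7.72 and 48.0% ± 3.60 of that sum in the same order of groups. The share of PDE4D was 18.5% ± 4.86 in controls, 5.50% ± 0.529 at 4 h and 5.22% ± 1.92 at 12 h. PDE4B held 25.8% ± 3.80, 22.3% ± 4.68 and 36.1% ± 4.70. Thus the 4 h mixture of these 4 was richer in PDE8A, and that at 12 h had proportionally more PDE4B and less PDE4D than in controls. These shares are descriptions with no test, and a summed transcript level is no measure of enzyme activity. The sum and the shares leave out the 12 other phosphodiesterases tested. Of those, PDE2A averaged 29.3 TPM in control, 26.8 TPM in 4 h and 23.3 TPM in 12 h corpora lutea. It was not called in any comparison (edgeR).

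CREM (chromosome 13, 18226732 to 18280982) was measured for the gene as a whole, so that ICER cannot be separated from the longer isoforms. It stood at 28.5, 34.3, 24.5 and 41.8 TPM in control cows, 51.4, 58.7, 38.9 and 56.7 TPM at 4 h, and 30.0, 9.56, 26.6 and 18.4 TPM at 12 h. Of the 4 h cows, 3 were above each control and cow6455 was within their range, although in TMM-scaled counts the 4 h cows lay above the controls without overlap. The 4 h log2 fold change was 0.69 (SE 0.31, adjusted p = 0.166, edgeR), and 0.70 with an adjusted p of 0.0312 (edgeR) without cow6314, the 12 h cow with the lowest CREM level. A fit of the control and 4 h groups alone also called it (0.71, adjusted p = 0.0347, edgeR). CREM was lower at 12 h than at 4 h (log2 fold change -0.94, SE 0.32, adjusted p = 0.0284, edgeR), but that call was lost without cow4291, cow5341, cow6456 or cow7475, with adjusted p from 0.0521 to 0.0741, and in a fit of the 2 groups alone (0.0511). Without cow6314 the log2 fold change against control at 12 h was 0.07, in place of -0.25 (adjusted p = 0.539, edgeR).

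PRKAR1A (chromosome 19, 61704501 to 61718579) had 271, 296, 231 and 263 TPM in control cows, 326, 373, 290 and 372 TPM at 4 h, and 208, 226, 216 and 203 TPM at 12 h. The 4 h cow with the lowest level, cow6455, fell just under the highest control. The rise at 4 h was small, 1.31-fold in counts (log2 fold change 0.39, SE 0.10, adjusted p = 0.0209, edgeR). It lost its call without cow7367, cow7514, cow5341 or cow6456, with adjusted p from 0.0515 to 0.0637 (edgeR). At 12 h it was level with control in counts (log2 fold change -0.01, SE 0.10, adjusted p = 0.951, edgeR) and lower than at 4 h (-0.40, SE 0.10, adjusted p = 0.00553, edgeR). On log2(TPM + 1) the 12 h cows were called lower than controls (-0.31, adjusted p = 0.0230, limma), with -0.06 left after that shift was subtracted.

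PRKAR2B, a type II regulatory subunit (chromosome 4, 48154065 to 48255759), showed no change in counts that passed the test. It was at 60.7, 47.4, 56.5 and 46.7 TPM in control cows, 42.0, 47.7, 45.7 and 35.8 TPM at 4 h, and 39.3, 40.3, 39.0 and 39.5 TPM at 12 h. The 12 h cows were close together, at 39.0 to 40.3 TPM. Its log2 fold changes were -0.27 at 4 h, -0.10 at 12 h and 0.16 for 12 h against 4 h (adjusted p = 0.170, 0.509 and 0.292, edgeR). On log2(TPM + 1) it was lower at 12 h than in controls (-0.40, adjusted p = 0.00865, limma), with -0.15 left after the shift was subtracted.

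At 12 h, 3 of the 9 genes had fallen against control and none had risen: PDE4D and both catalytic subunits. Of all genes tested 23.6% were higher and 25.3% lower at 12 h, so 3 of 9 lower is near the background. The median log2 fold change of the 9 was -0.16, beside 0.01 for all genes. In TPM 6 of the 9 were called lower (limma), the 3 further ones being PDE8A, PRKAR1A and PRKAR2B. On the log2(TPM + 1) scale 5631 of all 14481 genes were lower and 1509 higher in this comparison. Between the 2 times, 6 of the 9 were lower at 12 h than at 4 h and none was higher, where 24.3% of all genes were lower and 22.5% higher. The 6 were PDE8A, PDE4D, CREM, PRKAR1A, PRKACA and PRKACB. PDE4B and PDE10A had log2 fold changes of -0.58 and -0.73 between the times (adjusted p = 0.118 and 0.0898, edgeR), and both were called without cow6455 (0.0366 and 0.0146). Without cow5341 they were at -0.19 and -0.39 (adjusted p = 0.534 and 0.336, edgeR). On log2(TPM + 1) both were called lower at 12 h than at 4 h (-0.73 and -0.92, adjusted p = 0.0386 and 0.0389, limma). On that scale 8 of the 9 were lower between the times, where 5194 of all 14481 genes were lower and 1304 higher. The comparisons with 4 h and with control share cows, so their values for a gene are not independent.

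**Figure D2:**
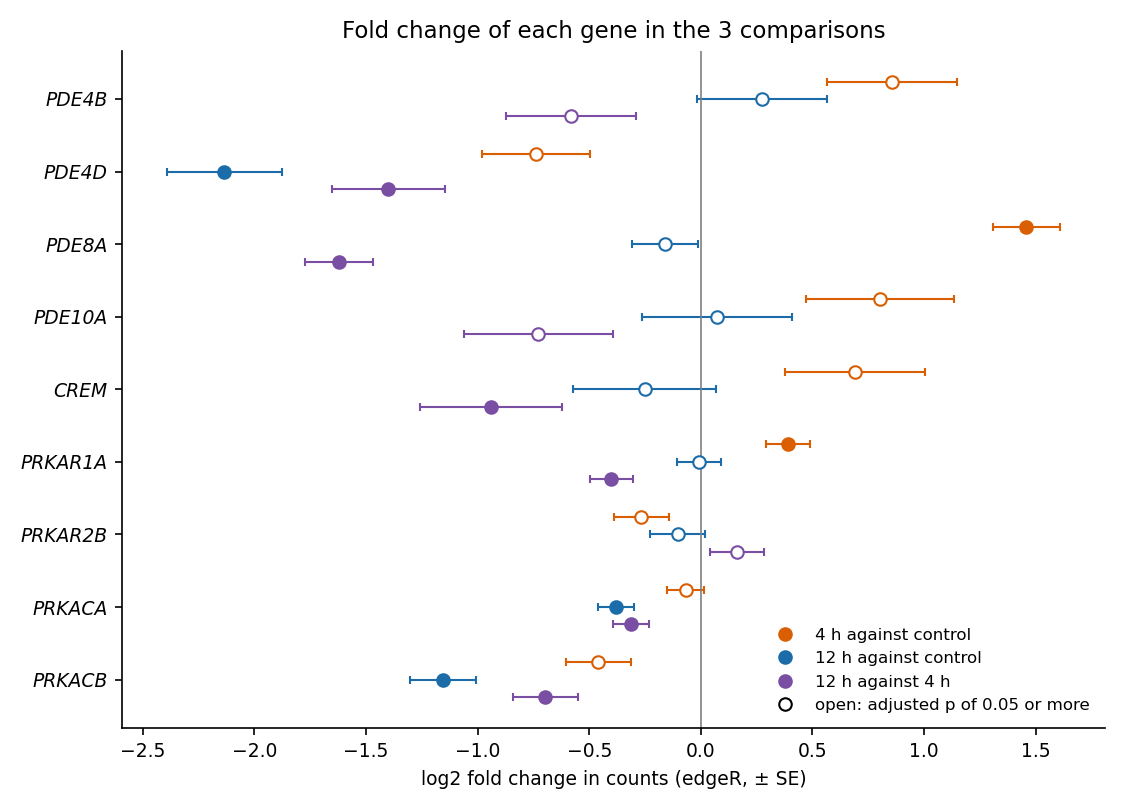
Log2 fold change in TMM-scaled counts of each gene in the 3 comparisons, with bars of 1 SE (edgeR, 4 cows per group). Filling marks genes past the threshold of 0.05 after adjustment. PDE8A stands at 1.46 at 4 h and -0.16 at 12 h against control, whereas PDE4D and PRKACB are lower at both times, with filled points at 12 h.

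PRKACB, which encodes the beta catalytic subunit (chromosome 3, 59884333 to 60026329), fell in counts to 0.449 of the control level at 12 h. Its levels were 45.9, 35.6, 55.4 and 51.6 TPM in control cows, 33.9, 40.9, 28.9 and 31.9 TPM at 4 h, and 13.0, 19.5, 17.6 and 15.0 TPM at 12 h. The 12 h cows lay below the other 8, and of the 4 h cows only cow5341 reached the control range. The log2 fold change at 12 h was -1.16 (SE 0.15, adjusted p = 7.06e-05, edgeR) and that against 4 h -0.70 (SE 0.15, adjusted p = 0.00210, edgeR). At 4 h it was -0.46 (SE 0.14, adjusted p = 0.0524, edgeR), and both DESeq2 and the length offset called it (adjusted p = 0.0375 and 0.0266), as did edgeR without cow6464 (0.0189).

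PRKACA, the alpha catalytic subunit (chromosome 7, 11592331 to 11610330), had 84.4, 70.3, 78.6 and 84.8 TPM in control cows, 80.6, 79.1, 72.2 and 63.5 TPM at 4 h, and 38.1, 45.4, 37.7 and 36.3 TPM at 12 h. Control and 4 h cows overlapped, with a log2 fold change of -0.07 (adjusted p = 0.632, edgeR), and the 12 h cows lay well below both groups. The size of the 12 h fall depended on the scale. In counts the difference was -0.38 on the log2 scale (SE 0.08, adjusted p = 0.00235, edgeR), and on log2(TPM + 1) it was -1.0 (SE 0.10, adjusted p = 1.40e-05, limma), with -0.75 left after the shift was subtracted. The falls of PDE4D, PRKACB and PRKACA at 12 h went with the lower steroidogenic and higher leukocyte marker levels given above, and the part of those levels in the falls was not tested. All 3 remained called without cow6455 and cow6314.

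Besides the shift of all genes, the counts and TPM of PRKACA differ by its effective length. Effective length is RSEM's mean length of a gene's transcripts, weighted by their estimated abundance, so it moves when the mixture of isoforms is estimated to move. For PRKACA, which has 3 annotated transcripts, it was 1902, 1984, 1930 and 1875 bases in control cows, 1902, 1826, 1969 and 2036 bases at 4 h, and 2438, 2201, 2366 and 2648 bases at 12 h. The 12 h cows lay above the other 8 without overlap. The 12 h mean of 2413 ± 185 bases, against 1922 ± 46.6 bases in controls (SD, n = 4 each), was a 1.25-fold increase (log2 difference 0.33, SE 0.05, adjusted p = 0.00256, limma over 6587 genes with more than 1 transcript). Leaving out each of the 12 cows in turn kept the call, with adjusted p from 0.00140 to 0.00987 (limma).

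Of the 8 genes with more than 1 transcript, 2 were longer at 12 h than in controls and 1 was shorter. Among the 6587 genes 9.58% were longer and 7.35% shorter. PRKACB was longer, with 3124 to 3187 bases at 12 h, against 2931 to 3025 bases in controls (log2 difference 0.08, adjusted p = 0.0366, limma), a call that was lost in 8 of 12 fits with 1 cow left out (cow4285, cow6464, cow7514, cow4291 or any 12 h cow; adjusted p up to 0.0922). PDE4B was shorter by a small amount, with 3632 to 3661 bases at 12 h, against 3685 to 3731 bases in controls (log2 difference -0.02, adjusted p = 0.00505, limma). The same 3 genes were called between 12 h and 4 h, where 8.0% of genes were longer and 6.56% shorter, and the PRKACB call was lost there without cow5341, cow6456 or any 12 h cow (adjusted p up to 0.0713, limma). At 4 h none of the 8 was called, nor was any at an unadjusted p under 0.05, beside 0.0607% of all genes called and 380 of 6587 at that unadjusted p (limma). The tables give no level per transcript, so which isoform moved was not analysed here. This test of length was chosen after the data had been seen.

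**Figure D3:**
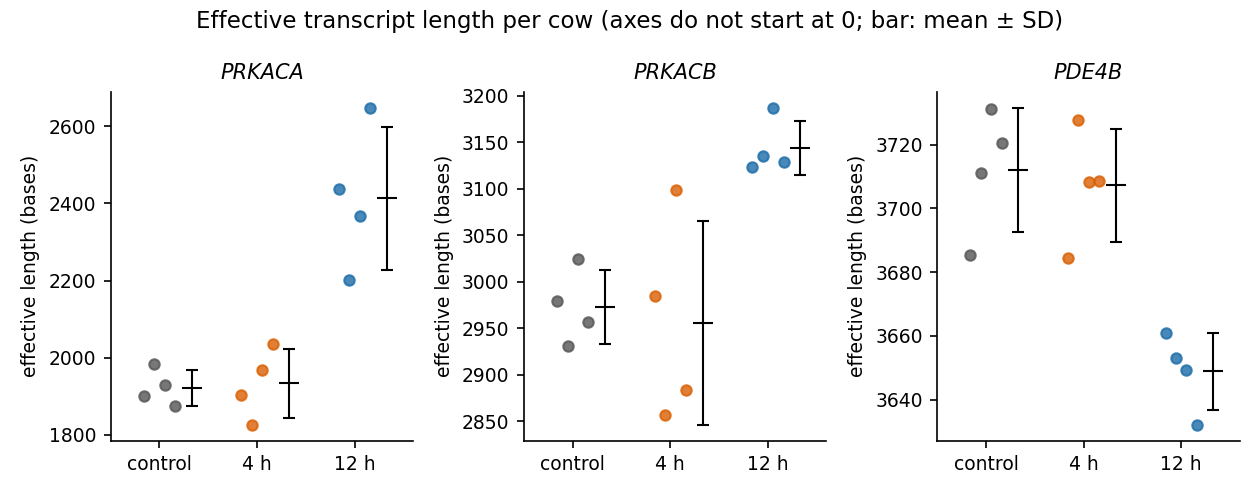
Effective transcript length in bases of PRKACA, PRKACB and PDE4B in control, 4 h and 12 h corpora lutea, 1 point per cow with the mean ± SD beside them; the axes do not start at 0. PRKACA lies at 2201 to 2648 bases at 12 h and at 1826 to 2036 bases in the other 8 cows, and the differences of PRKACB and PDE4B are smaller.

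The balance of protein kinase A subunit transcripts followed from these levels. The summed TPM of PRKAR1A and PRKAR2B over that of PRKACA and PRKACB was 2.55 ± 0.489 in control, 3.58 ± 0.480 in 4 h and 4.57 ± 0.323 in 12 h corpora lutea (SD, n = 4 each). The highest control, 3.24, overlapped the 4 h cows at their lowest, 3.22, and the 12 h cows lay above the controls. In TMM-scaled counts, which do not correct for length, the ratio was 1.65 ± 0.312, 2.30 ± 0.243 and 2.58 ± 0.128 for the 3 groups. The ratio of PRKACA to PRKACB was 1.72 ± 0.242 in controls, 2.20 ± 0.280 at 4 h and 2.45 ± 0.335 at 12 h in TPM. The ratios are built from the genes tested above and are given with no test. They describe transcripts, not the assembly of the kinase.

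**Figure D4:**
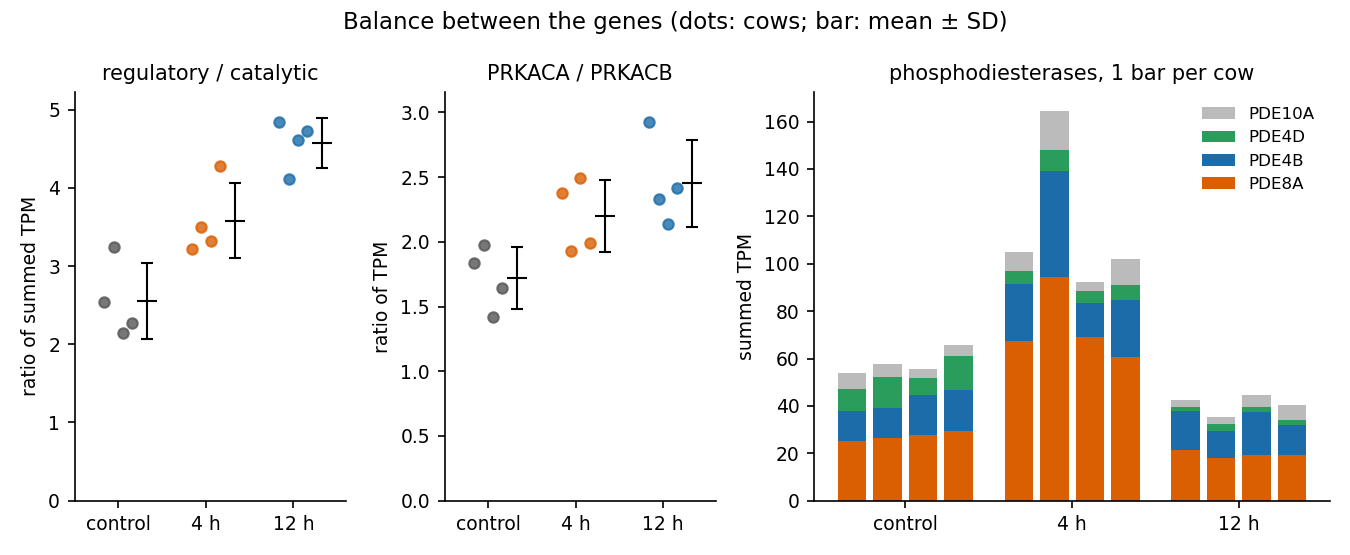
Ratio of summed regulatory to summed catalytic subunit TPM (left), ratio of PRKACA to PRKACB TPM (middle), and stacked TPM of the 4 measured phosphodiesterases in each cow (right), for control, 4 h and 12 h corpora lutea. Points are cows and bars beside them the mean ± SD; the first ratio averages 2.55, 3.58 and 4.57, and the stacks sum to 58.3, 116 and 40.7 TPM on average.

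Other genes of the pathway were counted from 5 lists of 63 genes, of which 61 had a row and 55 passed the count minimum. At 4 h, 4 of the 55 were higher and 3 lower, where 8.65% of all genes were higher and 5.59% lower. At 12 h, 9 of the 55 were higher and 21 lower than in controls, where 23.6% of all genes were higher and 25.3% lower. Against 4 h, 8 were higher and 18 lower at 12 h, beside 22.5% and 24.3% of all genes. With both cow6455 and cow6314 left out, 12 of the list genes were called at 4 h.

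Of 12 tested genes for cAMP production, 1 rose and 3 fell at 12 h, and the count lower is near the 25.3% of all genes. LHCGR, the receptor of luteinizing hormone and also one of the luteal markers, averaged 105 ± 18.2 TPM in control, 87.7 ± 17.6 TPM in 4 h and 20.7 ± 7.17 TPM in 12 h corpora lutea (SD, n = 4 each). Its log2 fold change at 12 h was -1.97 (SE 0.30, adjusted p = 0.000239, edgeR). The adenylyl cyclases ADCY3 and ADCY9, which synthesize cAMP, also fell at 12 h, with log2 fold changes of -1.36 and -1.74 (adjusted p = 1.98e-05 and 6.40e-05, edgeR). At 4 h ADCY3 was at 0.39 (adjusted p = 0.0801, edgeR), a rise that DESeq2 called (0.41, adjusted p = 0.0324), as did edgeR without cow6456 or cow7475. LHCGR and ADCY9 were at -0.21 and -0.44 at 4 h (adjusted p = 0.670 and 0.181, edgeR). GNAI1, an inhibitory G protein subunit, was higher at 4 h than in controls (log2 fold change 0.50, adjusted p = 0.0172, edgeR), a call not made on either TPM scale (adjusted p = 0.0636 and 0.0656, limma). The 1 that rose was GNAS, in counts only (log2 fold change 0.32, adjusted p = 0.0132, edgeR). Its mean was 1066 TPM in control and 1081 TPM in 12 h corpora lutea, with overlapping ranges. There are 2 rows of that name that share coordinates, and the untested one held at most 10 counts in any library. In TPM 3 of the list were lower at 12 h and none was higher (limma), where 5631 of all 14481 genes were lower and 1509 higher.

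Among 12 other phosphodiesterases, 4 rose and 3 fell at 12 h, where 23.6% of all genes rose and 25.3% fell, and 2 rose at 4 h. PDE9A, which is specific for cGMP, averaged 14.1 ± 1.55 TPM at 12 h, against 5.84 ± 0.554 TPM in controls (log2 fold change 1.57, SE 0.15, adjusted p = 1.38e-05, edgeR). The calcium-dependent PDE1B rose at both times, with log2 fold changes of 1.27 at 4 h and 1.77 at 12 h (adjusted p = 0.00526 and 0.000124, edgeR). PDE7B and PDE3A, which hydrolyze cAMP, fell at 12 h by 1.40 and 1.58 on the log2 scale (adjusted p = 0.000213 and 0.00256, edgeR). At 4 h PDE3A was at 0.74 against control (adjusted p = 0.142, edgeR), and was called higher without cow6314 (0.75, adjusted p = 0.0474, edgeR). PDE4C and PDE1C, named here after their values were seen, also hydrolyze cAMP and rose at 12 h by 4.09 and 2.76 on the log2 scale (adjusted p = 0.000504 and 0.00075, edgeR). Both were scarce, with 1 to 9 and 1 to 8 counts per control library. No control library reached the minimum of 10 counts, so both entered the test only through cows given PGF2α. Their calls are therefore no separate support for a rise, although both are among the 4 counted as higher at 12 h. PDE4C also varied widely at 12 h, from 0.72 to 3.98 TPM.

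Of 17 other subunits, inhibitors and anchors of protein kinase A, 3 rose and 8 fell at 12 h, beside 23.6% and 25.3% of all genes. PRKAR2A, the alpha form of the type II regulatory subunit, was at 5.45 ± 1.60 TPM at 12 h, against 20.7 ± 1.45 TPM in controls, a difference of -1.63 on the log2 scale (SE 0.16, adjusted p = 1.56e-05, edgeR). The anchoring proteins AKAP12, AKAP11 and AKAP10 fell at 12 h by 1.65, 1.10 and 0.65 on the log2 scale (adjusted p = 1.57e-05, 0.000104 and 4.06e-05, edgeR). AKAP10 was also called lower at 4 h (-0.26, adjusted p = 0.0379, edgeR), a call lost in 10 of 12 fits with 1 cow left out, those without cow5266 or cow6314 being the exceptions (adjusted p up to 0.126). The 3 that rose were AKAP8L and the kinase inhibitors PKIB and PKIG, named here after their values were seen. PKIB and PKIG had log2 fold changes of 1.34 and 0.94 at 12 h (adjusted p = 0.000157 and 0.00120, edgeR). Between 12 h and 4 h, 3 of the list were higher and 7 lower in counts, beside 22.5% and 24.3% of all genes. In TPM 2 were higher and 10 lower, where 1304 of all 14481 genes were higher and 5194 lower (limma).

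In the list of CREB family members and coactivators, 1 of 11 rose and 5 fell at 12 h, beside 23.6% and 25.3% of all genes. None was called at 4 h (edgeR). At an unadjusted p under 0.05, 5 passed at 4 h, and the share of all genes at that p was not counted. In TPM none rose and 7 fell at 12 h (limma), on the scale where 5631 of all 14481 genes fell. The coactivators EP300 and CRTC3 fell by 1.03 and 0.96 on the log2 scale at 12 h (adjusted p = 2.00e-05 and 0.000197, edgeR), and the kinase SIK2, which phosphorylates CRTC proteins, by 0.68 (adjusted p = 0.000608). CRTC2 rose in counts (log2 fold change 0.49, adjusted p = 0.000528, edgeR), which limma on log2(TPM + 1) did not call (0.18, adjusted p = 0.20). Against 4 h CRTC2 was also higher in counts (0.26, adjusted p = 0.0262, edgeR), with the sign turned on that TPM scale (-0.020) and the call lost without cow4291, cow6456, cow5266, cow7382 or cow7475 (adjusted p up to 0.101, edgeR).

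Among 3 other cAMP effectors, RAPGEF4, an exchange factor that cAMP activates directly, was lower at 4 h (log2 fold change -0.56, adjusted p = 0.0445, edgeR) and at 12 h (-0.70, adjusted p = 0.00516, edgeR). BVES, of the cAMP-binding Popeye family, was called lower at 12 h (-1.22, adjusted p = 0.0330, edgeR) at no more than 0.35 TPM in any group mean, and that call was lost under DESeq2 (adjusted p = 0.0510) and without cow7367, cow7514, cow5266 or cow6314 (adjusted p up to 0.123, edgeR). The 4 h call of RAPGEF4 was likewise lost under limma on log2(TPM + 1), with an adjusted p of 0.0850, and in 8 of 12 fits with 1 cow left out, those without cow6464, cow6455, cow5266 or cow6314 being the exceptions (adjusted p up to 0.130, edgeR).

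**Figure D5:**
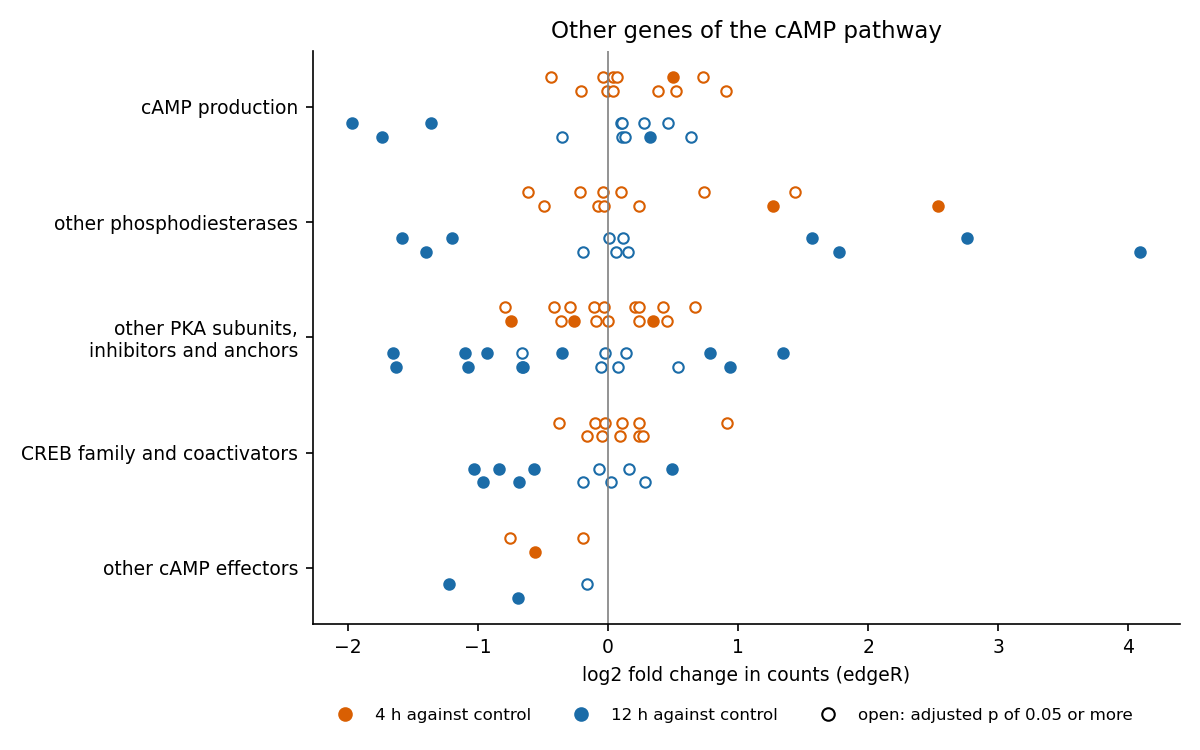
Log2 fold change in TMM-scaled counts of each tested gene of the 5 pathway lists at 4 h (upper row of each list) and 12 h (lower row) against control. Each point is 1 gene, filled where the adjusted p of edgeR is under 0.05; 7 of the 55 are filled at 4 h and 30 at 12 h.

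The genes most like the 3 members with the largest 12 h change were found by Pearson's r of log2 CPM over the 12 libraries, among 13076 named genes. For PDE4D they were GATAD1, ZBTB11 and MORC3, each with r of 0.97. Among the genes most like PRKACB were XPO7 and FYCO1, each with r of 0.97, and among those most like PRKACA were TMEM164 and RNF123, each with r of 0.95. These values are descriptions across libraries that fall into 3 groups, with no test.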

How the data were processed

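Whole corpora lutea of 12 cows were sequenced. The submitters' processing notes name STAR 2.5, RSEM 1.3 and the build ARS-UCD 1.2. The authors deposited for each gene an expected count (RSEM's estimate), TPM, FPKM (not used here) and an effective length. Expected counts were rounded. Genes reaching 10 counts in 4 or more of 12 libraries were fitted in edgeR 4.0.16 (TMM, quasi-likelihood, 3 groups in 1 fit, Benjamini-Hochberg within each comparison, threshold 0.05). Effective lengths in log2 bases were tested with limma 3.58.1. The edgeR and limma steps were tested on simulated data. Alternatives were DESeq2 1.42.0, RLE scaling, no count minimum or one of 50, a fit of 2 groups, limma on log2(TPM + 1) and log2(TPM + 0.1), no mitochondrially encoded genes, an offset per library that removes a spline trend (5 degrees of freedom) with transcript length, each cow left out in turn, and cow6455 with cow6314 left out.

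The members and gene lists were chosen with earlier results of these data known. Named were the members, up to 4 called genes with the smallest p per list, and the 3 genes most alike to each of the 3 members with the largest 12 h change. Genes of a list not called appear in counts, with the exception of PDE2A, which is given beside the summed phosphodiesterases. Some genes that this rule names are not reported here. The labels give no batch, and cow numbers do not pair groups. The planned sequence searches were not run. Tables and plots were made with matplotlib 3.10.9, numpy 2.4.6 and pandas 2.3.3 under Python 3.11.15, and fits under R 4.3.3.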

Additional observations from a re-analysis of the deposited data

Results flagged for a closer look

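In 3 of the 81 groups of 4 cows examined, 1 cow lay far from the other 3, and about 1 in 20 such groups is expected to do so by chance. Cow6314 of the 12 h group had 1.69 TPM of ADCY9, against 1.16 to 1.22 TPM in the other 12 h cows. It also had 1.12 TPM of PDE3A, against 0.35 to 0.44 TPM. Control cow6464 had 20.1 TPM of SIK2, with the other controls at 21.0 to 21.2 TPM.

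The effects at 12 h and at 4 h differed, by the edgeR test of 12 h against 4 h, for 21 of the 27 genes named, where 22.5% of all genes were higher and 24.3% lower. The list genes had been named partly for a small p in this comparison, so the count is a description. Among the members the log2 fold change between the times was -1.40 for PDE4D, -1.62 for PDE8A, -0.94 for CREM, -0.40 for PRKAR1A, -0.31 for PRKACA and -0.70 for PRKACB. In the lists it was -1.75 for ADCY3, -1.30 for ADCY9, -1.75 for LHCGR, -0.40 for GNAI1 (not called without cow5341, adjusted p = 0.0598, or with the length offset, where it was -0.19 with an adjusted p of 0.196, edgeR), -2.32 for PDE3A, -0.78 for PDE7B and 1.33 for PDE9A. For subunits and anchors it was -1.60 for PRKAR2A, -1.24 for AKAP12, -0.39 for AKAP10 and -0.99 for AKAP11. For coactivators it was -1.01 for EP300, -0.95 for SIK2, -0.86 for CRTC3 and 0.26 for CRTC2.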

How the results depend on the processing

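PDE4D, PRKACB and PRKACA kept their 12 h call in each alternative run. Of 242 alternative values for the 11 member calls, 233 stayed past the threshold in the same direction and 9 fell short, those of PRKAR1A at 4 h and of CREM between the times. Members called at 4 h numbered 2, but 5 with DESeq2 (3 higher, 2 lower), 4 with the length offset, 5 without cow6455 and cow6314, and 1 to 4 with 1 cow left out (1 without cow7514 or cow6456, 4 without cow6455). At 12 h they numbered 3, and 6 on either TPM scale, all lower. Of all 14481 genes, 5631 and 5666 were lower on log2(TPM + 1) and log2(TPM + 0.1), against 3665 in counts. List genes called at 4 h numbered 7, but 13 with DESeq2, 4 with no count minimum, 3 on either TPM scale and 12 without both cows. With 1 cow left out they numbered 4 (without cow7514) to 10 (without cow6314). The number of all genes called at 4 h also moved, from 2062 to 2749 with DESeq2, 2253 with the length offset and 2032 without both cows. It was 1824 with no count minimum, and 1635 and 1580 on log2(TPM + 1) and log2(TPM + 0.1). With 1 cow left out, the number of all genes called at 4 h, 2062 with every cow, ranged from 1267 (without cow7514) to 2174, with 1373 without cow7367 and 1300 without cow5341.

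Directions turned mainly where the change was near 0. At 12 h against control, log2(TPM + 1) and log2(TPM + 0.1) gave -0.030 and -0.033 for PDE4B, -0.25 and -0.30 for PDE10A, and -0.20 and -0.22 for GNAI1. Against 4 h they gave -0.10 and -0.11 for PRKAR2B and -0.020 and -0.021 for CRTC2. Without both cows the 12 h value was 0.010 for CREM, 0.0091 for PRKAR1A and -0.016 for GNAI1, and the 4 h value 0.066 for PRKAR2A, 0.030 for AKAP11, 0.052 for EP300 and 0.014 for CRTC3. Without mitochondrially encoded genes PRKAR1A was at 0.028 at 12 h, and the length offset put RAPGEF4 at 0.14 for 12 h against 4 h. With 1 cow left out the 12 h value ran from -0.17 to 0.28 for PDE10A, -0.53 to 0.066 for CREM and -0.056 to 0.097 for PRKAR1A. The 4 h value ran from -0.096 to 0.0061 for PRKACA, -0.12 to 0.066 for PRKAR2A, -0.21 to 0.028 for AKAP11, -0.11 to 0.051 for EP300 and -0.14 to 0.013 for CRTC3. The causes were not tested. Depth limited PDE4D at 12 h and PDE10A in every group most among the members. PDE4D had as few as 68 counts in a 12 h library, and CREM 87. PDE10A had as few as 71 counts in a control library, 80 in a 4 h library and 71 in a 12 h library. No paired analysis was possible because cow numbers do not pair the groups.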
